A study of Arabidopsis thaliana with 9 samples.

Results

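Polygalacturonases are the glycosyl hydrolases of family 28, enzymes that cut the backbone of homogalacturonan, the main pectin of the plant cell wall. The loci examined were 58 Arabidopsis thaliana genes of this family, taken from a fixed list and looked up by locus code in the annotation of the Affymetrix ATH1 array. The annotation paired 50 of them with 47 probe sets, among 22810 probe sets on the array. Of these probe sets, 44 name a single polygalacturonase and 3 are shared by a pair of them. No value is given for the other 8, which include PGA4, QRT2, whose product separates the grains of the pollen tetrad, PGAZAT (also called ADPG2), which acts in organ abscission and pod opening, and AT3G26610 (PGX1), which acts in cell expansion.

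The arrays measured steady-state transcript levels in whole seedlings of 3 genotypes grown for 14 days on agar. The mutant vtc2-1 carries a mutation induced with EMS in the Col-0 background, vtc1-1 carries a mutation in another gene and is given by a stock code, and Col-0 is the wild type. Both mutants are known for low ascorbate (vitamin C), and the question is how their transcripts differ from those of the wild type and from each other. As background, VTC2 encodes GDP-L-galactose phosphorylase and VTC1 GDP-mannose pyrophosphorylase, enzymes of ascorbate synthesis, and neither gene is paired with a probe set in the annotation used, so the mutated genes were not checked. Each genotype had 3 arrays, 9 in all, and each mutant is 1 line, so that the named mutation and any other change carried by that line cannot be told apart. Nothing in the labels tells if the replicates were sown separately. The p-values therefore cover the spread among these 9 samples, which may be technical, and the small number of arrays limits their precision.

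As background, homogalacturonan is a chain of galacturonic acid that is made in a methylesterified form in the Golgi. Pectin methylesterases remove the methyl groups in the wall, and polygalacturonases and pectate lyases then cut the exposed chain, the first by hydrolysis and the second by elimination. Polygalacturonases act where cells separate or expand, as in pollen, dehiscing pods, shed organs and growing tissue, and the fragments they release can act as signals. The galacturonic acid of pectin is also a possible precursor of ascorbate, a route best known from strawberry fruit.

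Most polygalacturonase probe sets gave dim signals in seedlings. Signals are linear intensities scaled alike on every array, and a probe set was tested when it exceeded the 40th percentile of its array, a signal of 28.3 to 30.4, on at least 3 of the 9 arrays. This left 16 of the 47 polygalacturonase probe sets, against 14603 of all 22746 probe sets that are not controls. The other 31, among them all 3 shared ones, are given as values, and 27 of them exceeded that percentile on no array. A signal from a whole seedling cannot tell fewer cells of a type apart from less RNA per cell.

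**Figure D1:**
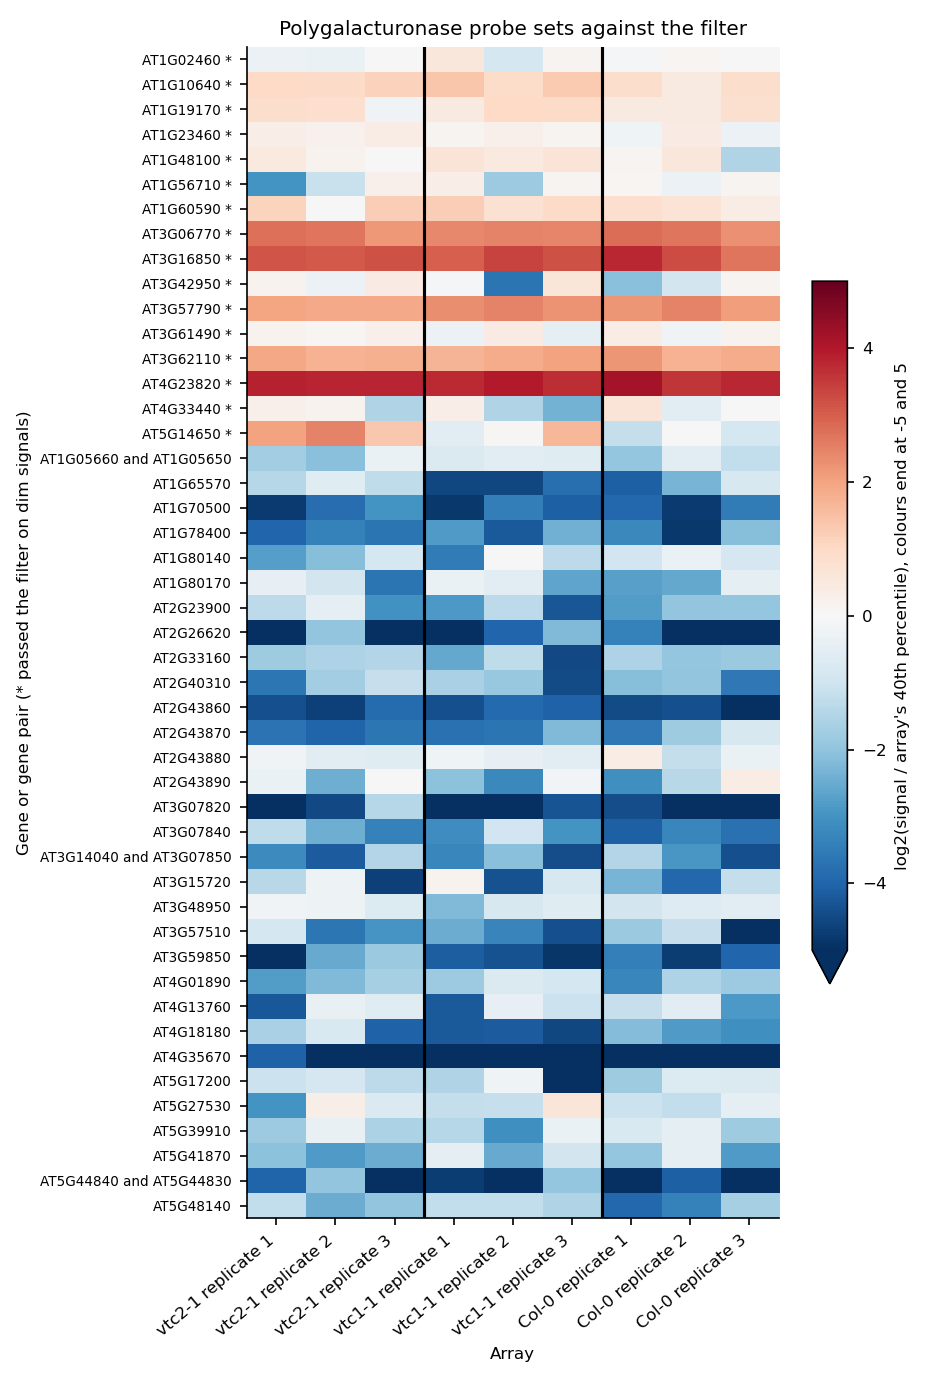
Each row is a polygalacturonase probe set and each column an array, with vtc2-1 left, vtc1-1 in the middle and Col-0 right. The colour is log2 of the signal over the 40th percentile of that array, red above and blue below it. The 16 probe sets marked with an asterisk stand at the top, and 6 of them are red on all 9 arrays, whereas the 31 below are blue on nearly every array.

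A gene known for a role in fruit was among the dim ones. ADPG1 (AT3G57510), which acts in pod dehiscence, had a lowest signal of 0.128, a median of 3.83 and a highest of 15.8 over the 9 arrays. The loci AT3G07820 and AT3G07840 had medians of 0.761 and 3.33, and the probe set shared by AT3G14040 and AT3G07850 had a median of 3.22. The locus AT2G33160, known as NMA (NIMNA), ran from 1.30 to 12.2 with a median of 8.67. The one pollen marker of 8 that the annotation pairs with a probe set, AtVEX1, was also above the 40th percentile on no array, at 2.13 to 25.4 in vtc2-1, 2.81 to 12.8 in vtc1-1 and 1.75 to 18.2 in Col-0. None of the 5 markers of abscission and dehiscence zones has a probe set in the annotation.

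At the low end, 7 probe sets lay below the 20th percentile of every array. They were AT1G70500, AT1G78400, AT2G26620, AT2G43860, AT3G59850, AT4G35670 and the pair AT5G44840 and AT5G44830. AT4G35670 never exceeded 1.76 and AT2G43860 never exceeded 2.08. Next to the filter were AT2G43890 and AT5G27530, each above the 40th percentile on 2 arrays. AT2G43890 had signals of 23.4, 5.53 and 30.6 in vtc2-1, of 6.95, 3.18 and 26.9 in vtc1-1, and of 3.58, 10.9 and 37.2 in Col-0. AT5G27530 had 3.68, 37.2 and 18.0 in vtc2-1, 12.5, 13.3 and 44.6 in vtc1-1, and 14.5, 12.0 and 20.8 in Col-0. In both genes the arrays of each genotype overlapped those of the others.

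Loci that adjoin each other also gave dim signals. In the gene order of the TAIR10.1 table, 11 of the 58 loci lie directly next to another one, in 4 runs. The runs are AT1G05650 with AT1G05660, AT2G43870 with AT2G43880 and AT2G43890, the run of AT3G07820, AT3G07830, AT3G07840 and AT3G07850, and AT5G44830 with AT5G44840. Of the 8 probe sets that measure a gene of such a run, 0 passed the filter, against 16 of the other 39. The 3 shared probe sets all measure a gene of such a run, and such probe sets cannot tell their genes apart. The count was made after the values were seen and is a description without a test.

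One wild-type array stood apart from its replicates, which bears on each comparison with Col-0. Over all 14603 tested probe sets, Col-0 replicate 3 correlated at r = 0.874 and 0.889 with the other Col-0 arrays, below its 0.916 to 0.931 with the mutant arrays. Probe sets are not independent replicates, and these correlations are descriptions. Among the 16 tested polygalacturonases, replicate 3 was the lowest Col-0 array for 7 and the highest for 2. Col-0 replicate 2 was also the lowest for 7, and replicate 1 was the highest for 9. Each Col-0 array was also set against the mean log2 signal of the other Col-0 arrays. The median absolute deviation over the 16 was 0.43, 0.41 and 0.28 for replicates 1, 2 and 3. Over all tested probe sets it was 0.28, 0.26 and 0.34, so replicate 3 deviated most there and least among the 16. Because of its place over all probe sets, differences from Col-0 discussed for single genes, and the counts of calls, are given with and without replicate 3. Of the seedling's tissues, the green leaf markers RCA and LHCB4.1 and the root marker PYK10 were above the 40th percentile on all 9 arrays, while the root hair markers EXPA7 and EXPA18 were above it on 8 and 5.

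The largest log2 difference among the tested polygalacturonases belonged to AT5G14650, with higher signals in vtc2-1 seedlings than in Col-0. Its signals were 119, 168 and 76.9 in vtc2-1 replicates 1, 2 and 3, 20.1, 30.4 and 92.9 in vtc1-1, and 13.1, 27.7 and 15.6 in Col-0. Each vtc2-1 array lay above each Col-0 array, whereas vtc1-1 replicates 1 and 2 lay near the wild type and vtc1-1 replicate 3 lay among the vtc2-1 arrays. The means were 121 ± 45.5 in vtc2-1, 47.8 ± 39.4 in vtc1-1 and 18.8 ± 7.84 in Col-0 (SD, n = 3 arrays each).

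For vtc2-1 against Col-0 this was a log2 difference of 2.70 ± 0.51 (SE), a 6.48-fold ratio with a 95% interval of 3.03 to 13.9. Its unadjusted p in limma was 0.000154, and its p adjusted over all 14603 tested probe sets was 0.597, so it did not pass the threshold of 0.05. Without Col-0 replicate 3 the difference was 2.60 ± 0.54 and passed (limma unadjusted p = 0.000319, adjusted p = 0.0470). Its unadjusted p was thus not lower than with all arrays. The adjusted p also depends on the other tested probe sets, and limma called 122 in all in that fit, against 1 with all arrays. Over all 17 alternatives the adjusted p in limma ran from 0.0470 to 0.950, and AT5G14650 passed only without Col-0 replicate 3. Because the probe set passed the filter through mutant arrays alone, with 0 of the Col-0 arrays above the 40th percentile, the wild-type level is uncertain. With the Col-0 signals raised to that percentile as a floor, the ratio from mean log2 signals was 3.96-fold, a point value without an interval. AT5G14650 was known to stand out in these data when it was chosen, so its p-values are not independent evidence.

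In vtc1-1 the same gene differed from Col-0 by a log2 value of 1.11 ± 0.51 (limma unadjusted p = 0.0478, adjusted p = 0.998), and leaving out Col-0 replicate 3 gave 1.01 ± 0.54 (limma adjusted p = 0.481). One array carried much of it, since the value was 0.47 without vtc1-1 replicate 3. The mutants set against each other gave 1.59 ± 0.51 for vtc2-1 over vtc1-1 (limma unadjusted p = 0.0082, adjusted p = 0.998). All 3 vtc2-1 arrays were above vtc1-1 replicates 1 and 2, but vtc1-1 replicate 3 was above vtc2-1 replicate 3. A difference between the mutants was thus not called.

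A root marker shared part of this pattern between arrays. PYK10, a beta-glucosidase of root endoplasmic reticulum bodies, had signals of 4238, 4406 and 2086 in vtc2-1, of 2031, 1726 and 2318 in vtc1-1, and of 2465, 2623 and 3001 in Col-0. The vtc2-1 arrays with the higher AT5G14650 signals were those with the higher PYK10 signals, and vtc1-1 replicate 3 was the highest vtc1-1 array for both genes. The wild type departed from this, with PYK10 above its vtc1-1 signals and AT5G14650 low.

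Of 11 root and root hair markers, the annotation holds PYK10, EXPA7 and EXPA18, and none passed in any comparison. PYK10 differed most between the mutants, by a log2 value of 0.75 ± 0.25 for vtc2-1 over vtc1-1 (limma unadjusted p = 0.00986). The summed signal of these 3 was 2161 to 4486 in vtc2-1, 1787 to 2395 in vtc1-1 and 2529 to 3105 in Col-0, and was mostly PYK10. EXPA7 is an expansin of root hair cells. It had 31.7, 30.1 and 39.6 in vtc2-1, 45.9, 36.0 and 38.2 in vtc1-1, and 41.6, 33.3 and 56.9 in Col-0. Its highest vtc2-1 array was replicate 3, where AT5G14650 was lowest, and its highest vtc1-1 array was replicate 1. EXPA18 had 30.8, 50.4 and 35.8 in vtc2-1, 22.8, 25.6 and 39.2 in vtc1-1, and 22.3, 25.8 and 47.3 in Col-0. Like AT5G14650 it was highest on vtc2-1 replicate 2 and vtc1-1 replicate 3, but in Col-0 it was highest on replicate 3. The part of root content in the AT5G14650 values was not tested.

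**Figure D2:**
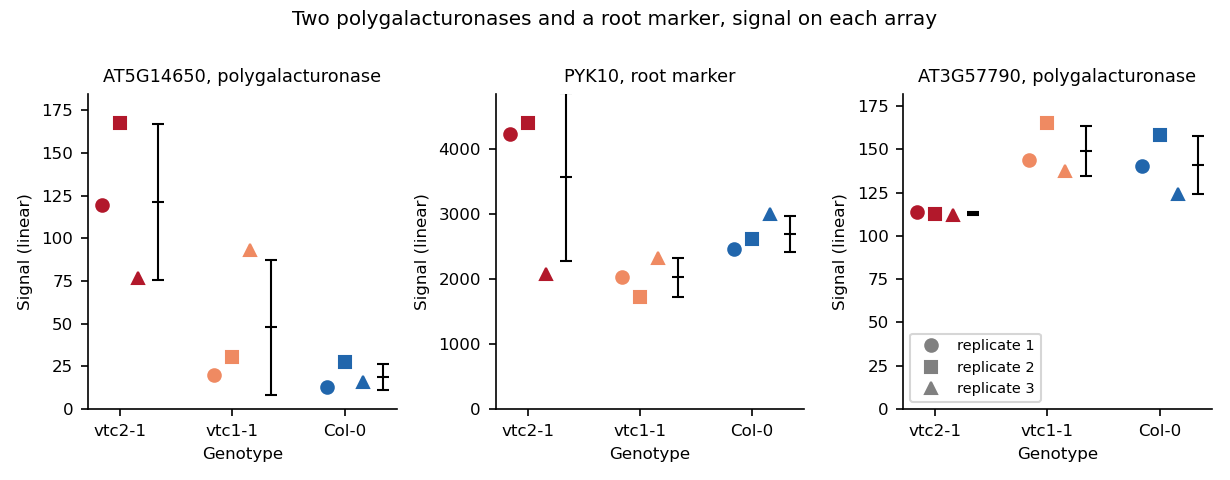
Linear signal of AT5G14650, the root marker PYK10 and AT3G57790 on each array, with vtc2-1 left, vtc1-1 in the middle and Col-0 right. Points are arrays, with the replicate number given by the symbol, and bars are the mean and SD of 3 arrays. For AT5G14650 the 3 vtc2-1 points lie above the 3 Col-0 points, and for AT3G57790 they lie close together below all other points.

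AT3G57790 had lower signals in vtc2-1 than in either other genotype, by a small amount that did not pass the test. Its signals were 114, 113 and 112 in vtc2-1, 144, 165 and 137 in vtc1-1, and 140.5, 158 and 124 in Col-0. The vtc2-1 arrays lay below all 6 others and close to each other. The means were 113 ± 1.06 in vtc2-1, 149 ± 14.6 in vtc1-1 and 141 ± 16.9 in Col-0 (SD, n = 3 arrays each). The log2 difference was -0.31 ± 0.16 (SE) for vtc2-1 against Col-0 (limma adjusted p = 0.804) and -0.39 ± 0.16 for vtc2-1 against vtc1-1 (limma unadjusted p = 0.0303, adjusted p = 0.998). The difference from Col-0 with replicate 3 left out was -0.40 ± 0.17 (limma unadjusted p = 0.0375, adjusted p = 0.285). Neither comparison passed the threshold under any of the 17 alternatives.

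AT1G10640 had higher signals in both mutants. They were 59.1, 58.6 and 67.1 in vtc2-1, 74.8, 55.5 and 71.7 in vtc1-1, and 55.4, 38.4 and 53.6 in Col-0. All 6 mutant arrays lay above the 3 wild-type arrays, although the lowest vtc1-1 and the highest Col-0 signal differed by little. The log2 difference was 0.34 ± 0.22 for vtc2-1 (limma adjusted p = 0.809) and 0.46 ± 0.22 for vtc1-1 (limma adjusted p = 0.998). They were 0.41 ± 0.25 in vtc2-1 and 0.53 ± 0.25 in vtc1-1 without Col-0 replicate 3, and without Col-0 replicate 2, its lowest array, 0.17 in vtc2-1 and 0.29 in vtc1-1. Both values use the same Col-0 arrays and so are not independent of each other.

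AT1G48100 showed how 1 wild-type array can set a difference. It had signals of 41.5, 34.4 and 29.4 in vtc2-1, 45.2, 41.6 and 45.8 in vtc1-1, and 33.6, 42.3 and 10.2 in Col-0. The vtc2-1 arrays all lay below the vtc1-1 arrays, with a log2 difference of -0.35 ± 0.46 for vtc2-1 against vtc1-1, and both overlapped Col-0. The margin was small, with the highest vtc2-1 signal at 41.5 and the lowest vtc1-1 signal at 41.6. Against Col-0 the log2 difference was 0.51 ± 0.46 in vtc2-1 and 0.86 ± 0.46 in vtc1-1, and without Col-0 replicate 3, the array at 10.2, these became -0.12 ± 0.31 and 0.23 ± 0.31. None of them passed in limma.

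For AT1G23460 the arrays of the mutants did not overlap either, by a small margin and without passing. Its signals were 36.9, 35.4 and 39.1 in vtc2-1, 31.8, 34.6 and 32.5 in vtc1-1, and 26.4, 37.2 and 23.7 in Col-0, with a log2 difference of 0.17 ± 0.31 for vtc2-1 against vtc1-1 (limma adjusted p = 0.998). All vtc2-1 arrays lay above all vtc1-1 arrays, the nearest being at 35.4 and 34.6, and those of Col-0 spread across both. By its suffix, this probe set may share probes with closely similar transcripts, and which of them gave the signal is uncertain.

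**Figure D3:**
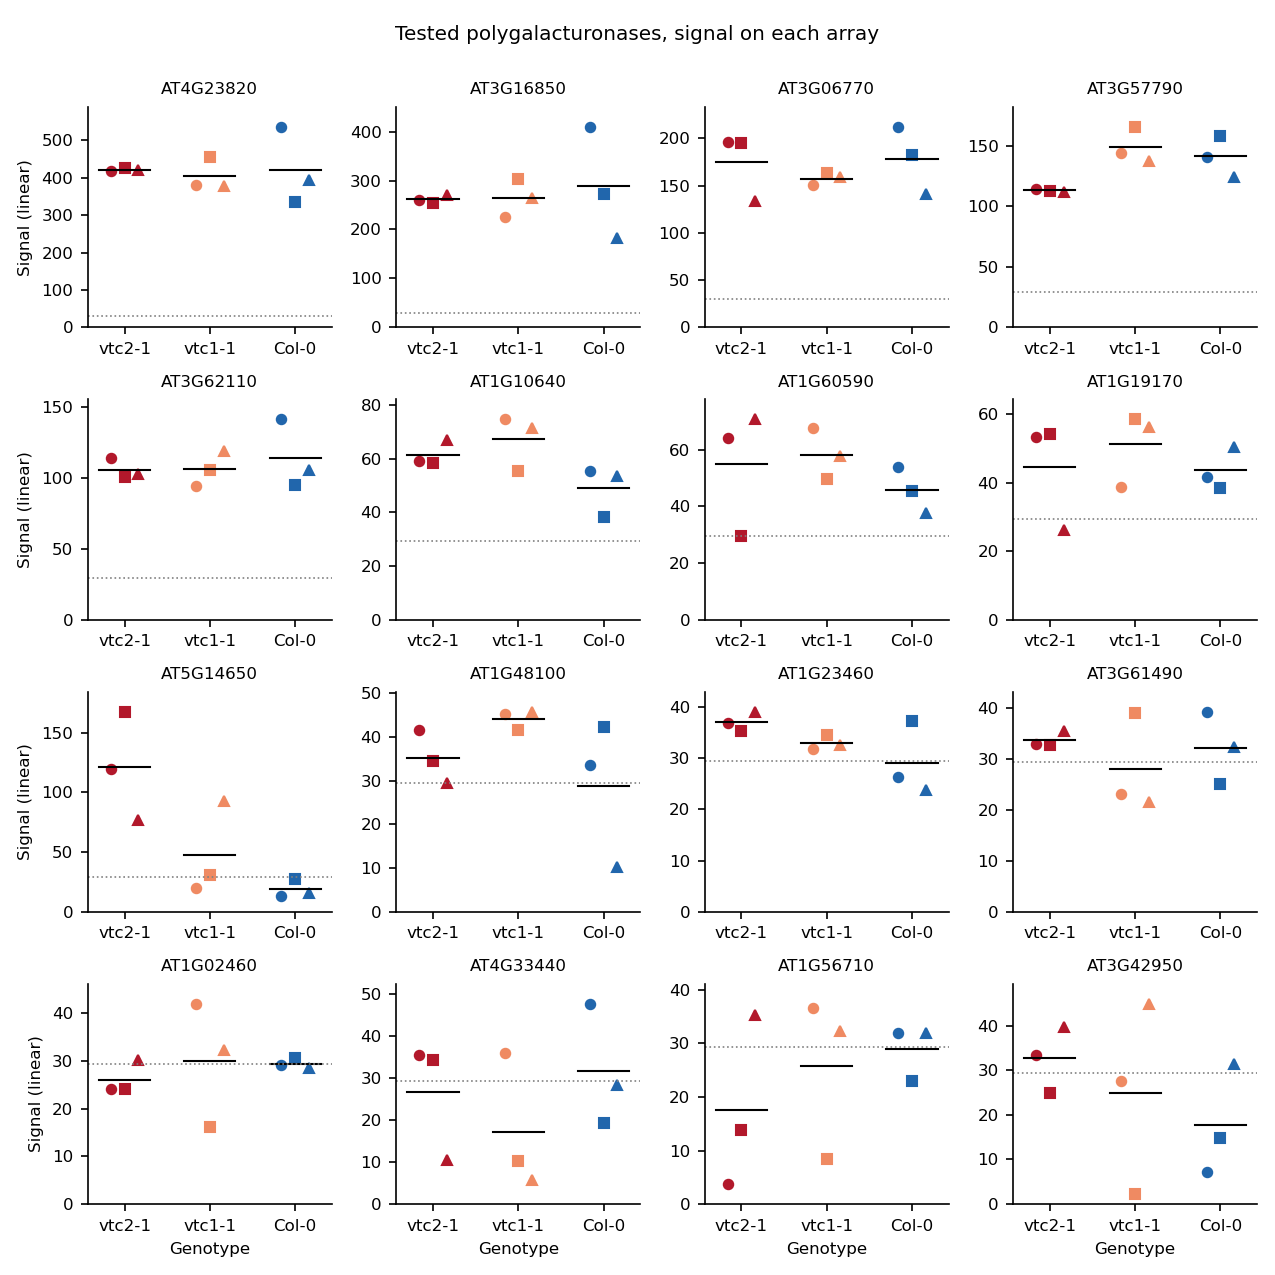
Linear signal of the 16 tested polygalacturonases, 1 panel per gene, with vtc2-1 left, vtc1-1 in the middle and Col-0 right in each. Points are arrays (circle, square and triangle for replicates 1, 2 and 3), horizontal bars are means of 3 arrays, and the dotted line is the mean 40th percentile over the arrays. AT5G14650 has its 3 vtc2-1 points above its Col-0 points, and most other panels show genotypes that overlap.

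Besides AT3G57790, the polygalacturonases that were above the median signal on all 9 arrays were AT4G23820, AT3G16850, AT3G06770 and AT3G62110. AT4G23820 had signals of 418, 427 and 421 in vtc2-1, 380, 457 and 379 in vtc1-1, and 536, 336 and 394 in Col-0. The vtc2-1 and vtc1-1 signals lay inside the range of the wild type, which spread most. AT3G16850 had 260, 254 and 271 in vtc2-1, 225, 303 and 264 in vtc1-1, and 410, 272 and 183 in Col-0, and here too the wild type spanned both mutants.

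AT3G06770 had 196, 195 and 134 in vtc2-1, 151, 163 and 159 in vtc1-1, and 212, 182 and 141 in Col-0. AT3G62110 had 114, 100.4 and 102 in vtc2-1, 93.8, 106 and 119 in vtc1-1, and 141, 94.9 and 105 in Col-0. In both the genotypes overlapped. For these 4 genes, with all arrays in the fit, the 95% intervals of the ratio to Col-0 lay between 0.665 and 1.38 in vtc2-1 and between 0.662 and 1.38 in vtc1-1. These bounds depend on Col-0 replicate 3. Without it the log2 difference of AT3G16850 was -0.35 ± 0.19 in each mutant. AT3G06770 had -0.19 ± 0.20 in vtc2-1 and -0.32 ± 0.20 in vtc1-1, and AT3G62110 had -0.14 ± 0.21 and -0.13 ± 0.21. AT4G23820 had -0.008 ± 0.19 in vtc2-1 and -0.073 ± 0.19 in vtc1-1. None of these passed in limma. These 4 genes and AT1G10640 with AT3G57790 made up the 6 above the 40th percentile on every array.

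The 7 remaining tested polygalacturonases overlapped between all genotypes. AT1G60590 had 64.0, 29.6 and 70.7 in vtc2-1, 67.5, 49.5 and 57.7 in vtc1-1, and 53.9, 45.4 and 37.7 in Col-0. AT1G19170 had 53.4, 54.1 and 26.2 in vtc2-1, 38.8, 58.5 and 56.4 in vtc1-1, and 41.8, 38.5 and 50.6 in Col-0. In each gene 1 vtc2-1 array lay far below the other 2 vtc2-1 arrays, replicate 2 for AT1G60590 and replicate 3 for AT1G19170.

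AT3G61490 ran from 32.8 to 35.5 in vtc2-1, from 21.6 to 39.0 in vtc1-1 and from 25.2 to 39.3 in Col-0. AT4G33440 had 35.4, 34.3 and 10.5 in vtc2-1, 36.0, 10.2 and 5.69 in vtc1-1, and 47.7, 19.3 and 28.3 in Col-0. AT1G56710 had 3.71, 13.9 and 35.4 in vtc2-1, 36.6, 8.36 and 32.3 in vtc1-1, and 32.0, 22.9 and 32.0 in Col-0. AT4G33440 and AT1G56710 varied by several fold among the arrays of each mutant.

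The genes just inside the filter, on 4 arrays each, also overlapped between all genotypes. AT1G02460 ran from 24.1 to 30.2 in vtc2-1, from 16.1 to 42.0 in vtc1-1 and from 28.6 to 30.6 in Col-0. AT3G42950 had 33.5, 25.0 and 39.7 in vtc2-1, 27.6, 2.32 and 44.9 in vtc1-1, and 7.11, 14.8 and 31.4 in Col-0. AT4G33440 was the third of them. The within-genotype SD of the log2 signal had a median over the 16 genes of 0.22 in vtc2-1, 0.23 in vtc1-1 and 0.31 in Col-0, near that of all tested probe sets, which was 0.24 in vtc2-1, 0.23 in vtc1-1 and 0.29 in Col-0.

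The polygalacturonases as a group were read from the fit over all probe sets. In vtc2-1 against Col-0, limma called 0 of the 16 at an adjusted p under 0.05, where it called 1 of 14603 probe sets in all (0.00685%). At an unadjusted p under 0.05 there was 1, AT5G14650, against 6.28% of all tested probe sets. The arrays did not overlap for 3 of 16, AT5G14650, AT1G10640 and AT3G57790, against 10.8% of all. Without Col-0 replicate 3 limma called 1 of the 16, AT5G14650, against 0.835% of all tested probe sets. Because AT5G14650 was known to stand out and passed the filter through mutant arrays alone, counts that include it are no result about the family. The median log2 difference of the 16 was -0.0012, against 0.013 for all probe sets, with 8 of 16 above 0. It was -0.063 without Col-0 replicate 3, and without Col-0 replicate 1 it was 0.22.

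In vtc1-1 against Col-0 limma called 0 of the 16 and 0% of all probe sets. At an unadjusted p under 0.05 there was 1, AT5G14650, against 4.13% of all. The arrays did not overlap for 1, AT1G10640, against 7.94% of all. Without Col-0 replicate 3 limma called 0 of the 16, against 0.322% of all. The median log2 difference was -0.049, against 0.0074 for all probe sets, with 7 of 16 above 0. It was -0.039 without Col-0 replicate 3, and its sign turned without vtc1-1 replicate 2 (0.14), without Col-0 replicate 1 (0.12) and without vtc1-1 replicate 1 (0.028).

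Between vtc2-1 and vtc1-1 limma called 0 of the 16, against 0.00685% of all probe sets. At an unadjusted p under 0.05 there were 2, AT5G14650 and AT3G57790, against 3.61% of all. The arrays did not overlap for 3, AT1G23460, AT1G48100 and AT3G57790, against 10.3% of all. The median log2 difference was -0.0008, against 0.0049 for all probe sets. With 16 genes these shares rest on 1 to 3 genes each, and nothing particular to the family is read from them.

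**Figure D4:**
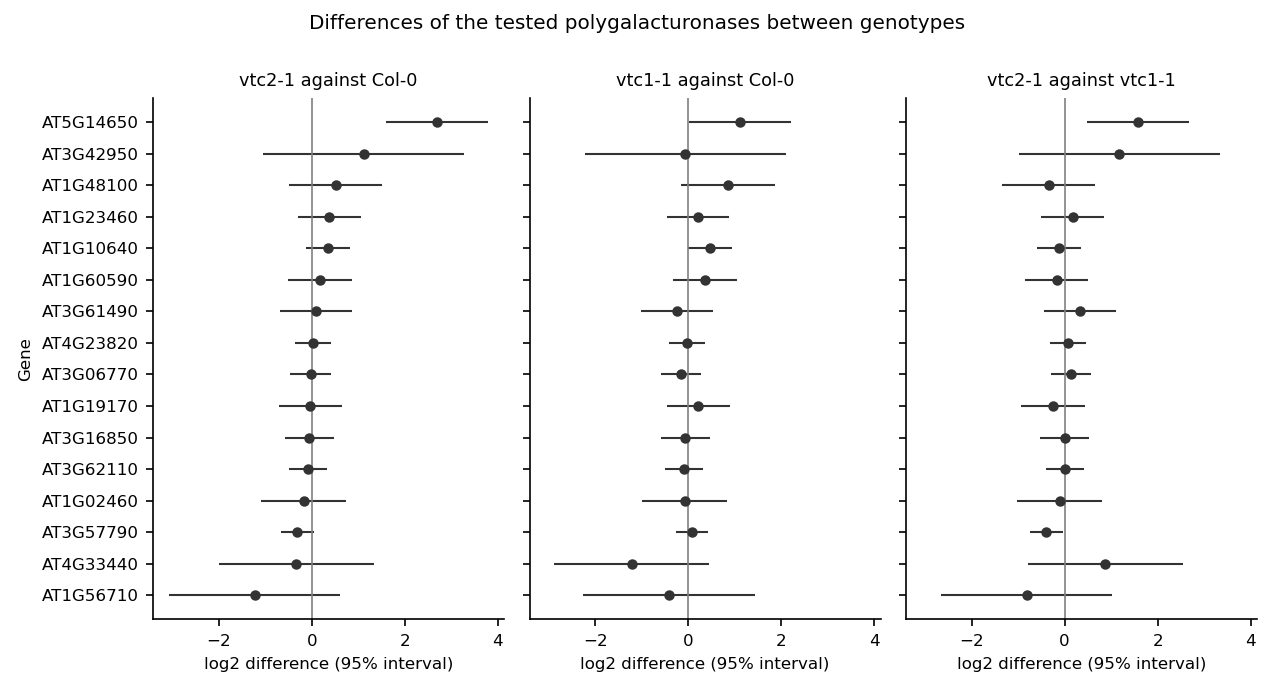
The log2 difference of each tested polygalacturonase in vtc2-1 against Col-0 (left), vtc1-1 against Col-0 (middle) and vtc2-1 against vtc1-1 (right). Points are limma coefficients and lines their 95% intervals before adjustment for the number of probe sets. AT5G14650 at the top has the largest value in the left panel at 2.70, and most intervals in all panels cross 0.

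Other enzymes of pectin were read from lists written from general knowledge of the family names. Of 26 pectate lyases, which cut the same chain by elimination, 23 have a probe set and 13 were tested. In vtc2-1 none of the 13 passed with all arrays, and 4 had an unadjusted limma p under 0.05, all higher, against 6.28% of all probe sets in either direction. Of the 13, 11 were above 0, against 51.9% of all probe sets, with a median log2 difference of 0.35 against 0.013 for all probe sets. In vtc1-1 none passed, 3 had an unadjusted p under 0.05, all higher, against 4.13% of all probe sets in either direction, and the median was 0.081. In both mutants these counts include AT3G09540, which passed the filter through mutant arrays alone, so its direction is not independent of the filter. Without Col-0 replicate 3 limma called 2 of the 13 in vtc2-1, against 0.835% of all probe sets, and 0 in vtc1-1, against 0.322%. Their summed signal over the 23 probe sets was 2273 to 2461 in vtc2-1, 1957 to 2180 in vtc1-1 and 1665 to 2005 in Col-0.

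AT4G24780 carried much of that sum, at 647, 721 and 753 in vtc2-1, 566, 629 and 623 in vtc1-1, and 366, 418 and 578 in Col-0. The vtc2-1 arrays lay above all Col-0 arrays, and Col-0 replicate 3 lay inside the vtc1-1 range. Its log2 difference was 0.66 ± 0.18 in vtc2-1 (limma adjusted p = 0.685) and 0.44 ± 0.18 in vtc1-1 (limma adjusted p = 0.998). Without Col-0 replicate 3 it was 0.85 ± 0.15 in vtc2-1 and passed (limma adjusted p = 0.0266), and in vtc1-1 it was 0.63 ± 0.15 and did not (limma adjusted p = 0.0916).

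AT3G27400 had 59.8, 46.1 and 43.0 in vtc2-1, 43.0, 48.4 and 63.9 in vtc1-1, and 15.7, 16.9 and 41.1 in Col-0. All 6 mutant arrays lay above the wild type, with Col-0 replicate 3 close to them. Its log2 difference was 1.15 ± 0.37 in vtc2-1 and 1.20 ± 0.37 in vtc1-1, and without Col-0 replicate 3 it passed in vtc2-1 at 1.59 ± 0.33 (limma adjusted p = 0.0446) and not in vtc1-1 at 1.65 ± 0.33 (limma adjusted p = 0.0543). The 2 Col-0 arrays then left were both below the 40th percentile, which leaves the wild-type level uncertain. With them raised to that floor, the ratio from mean log2 signals was 1.68-fold in vtc2-1 and 1.74-fold in vtc1-1, without an interval. AT3G09540 had 67.9, 45.0 and 63.7 in vtc2-1, 39.9, 61.5 and 57.1 in vtc1-1, and 24.7, 27.6 and 26.0 in Col-0, so that all wild-type arrays lay below all mutant arrays. It was above the 40th percentile on 0 of the 3 Col-0 arrays and so passed the filter through mutant arrays alone, which leaves its wild-type level uncertain. With its Col-0 signals raised to that floor, the ratio from mean log2 signals was 1.99-fold in vtc2-1 and 1.78-fold in vtc1-1, again without an interval. Its fitted log2 difference was 1.15 ± 0.27 in vtc2-1 (limma adjusted p = 0.674) and 0.99 ± 0.27 in vtc1-1 (limma adjusted p = 0.998). It passed neither with all arrays nor without Col-0 replicate 3.

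Of 54 pectin methylesterases 35 have a probe set and 14 were tested, of which none passed and 7 were above 0 in each mutant. AT3G10720 had signals of 234, 245 and 199 in vtc2-1, 236, 216 and 244 in vtc1-1, and 322, 291 and 574 in Col-0. All mutant arrays lay below the wild type, and its highest value was Col-0 replicate 3. Its log2 difference was -0.74 ± 0.23 in vtc2-1 and -0.70 ± 0.23 in vtc1-1. Without that array these became -0.44 ± 0.16 and -0.40 ± 0.16. AT1G23200 had the largest log2 difference of the 14 in vtc2-1, at 1.99 ± 0.92 (limma adjusted p = 0.783). In vtc1-1 it was 0.82 ± 0.92. Without Col-0 replicate 3 these were 2.57 (limma adjusted p = 0.237) and 1.41. Its vtc2-1 arrays all lay above Col-0. All its Col-0 signals were below the 40th percentile, so its wild-type level is uncertain. AT3G59010 had 0.80 ± 0.38 in vtc2-1 and 0.47 ± 0.38 in vtc1-1, and 0.85 and 0.52 without Col-0 replicate 3.

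Of 13 pectin methylesterase inhibitors 5 were tested and none passed, of 11 pectin acetylesterases 4 were tested and none passed, and of 19 genes of homogalacturonan synthesis the only one with a probe set, GAUT15, did not pass either. Among the acetylesterases, AT1G57590 had 85.4, 117 and 115 in vtc2-1, 48.6, 70.3 and 119 in vtc1-1, and 47.5, 76.7 and 74.1 in Col-0, a log2 difference of 0.69 ± 0.30 for vtc2-1 against Col-0 (limma adjusted p = 0.783), and of 0.79 ± 0.33 without Col-0 replicate 3 (limma adjusted p = 0.266). Polygalacturonase inhibitors and beta subunit-like proteins, 5 genes, have no probe set in the annotation. Of 7 defence genes known to respond to pectin fragments, 2 were tested and none passed with all arrays. AT4G36430 had 162, 168 and 138 in vtc2-1, 126, 115 and 153 in vtc1-1, and 42.1, 47.9 and 121 in Col-0, and AT1G26380 had 3.93, 3.88 and 24.7 in vtc2-1, 18.5, 53.6 and 56.1 in vtc1-1, and 12.8, 12.8 and 239.5 in Col-0. For both, Col-0 replicate 3 was the highest wild-type array. AT4G36430 had a log2 difference of 1.31 ± 0.32 in vtc2-1 (limma adjusted p = 0.674) and 1.06 ± 0.32 in vtc1-1 (limma adjusted p = 0.998). Without that array it passed in both, at 1.79 ± 0.20 in vtc2-1 (limma adjusted p = 0.00301) and 1.54 ± 0.20 in vtc1-1 (limma adjusted p = 0.00865), while AT1G26380 did not pass in either.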

How the data were processed

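Total RNA was taken from whole seedlings, the label was biotin, and 1 single-colour array was read per sample. The authors deposited signal intensities on a linear scale; the submitters' processing notes name GCOS and MAS5, and versions and a genome build are not given in the sources used here. The mean of each array's deposited intensities after trimming 2% at either end was 100.01, so they had been scaled alike and were used as deposited, which removes any change in total RNA.

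Signals were log2 transformed without a pseudocount. A probe set was tested if above its array's 40th percentile on at least 3 of 9 arrays, control probe sets left out. One model of 3 group means was fitted over all 14603 tested probe sets with limma 3.58.1 in R 4.3.3 (intensity trend), with Benjamini-Hochberg adjustment over all of them and a threshold of 0.05. The procedure was tested on simulated data with known changes. It recovered 50% of 2-fold changes in vtc2-1 against Col-0, 42% in vtc1-1 against Col-0 and 40% between the mutants. For 4-fold changes it recovered 93%, 84% and 89%, with 7, 3 and 3 false calls. The simulated arrays varied independently, with none set apart like Col-0 replicate 3, so these shares may not hold here. A probe set that did not pass is not shown to be unchanged. Figures were drawn with matplotlib 3.10.9.

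Loci were matched by gene ID through the RefSeq TAIR10.1 table. Of the probe sets, 13513 have 1 gene, 503 have several and 8794 are not listed. Each pectin or marker list kept 1 probe set per gene, the brightest. The members and lists were chosen with earlier results of these data known. The rule for named genes gave values for polygalacturonases with an unadjusted p under 0.05 in any comparison, the 6 with the highest mean log2 signal and those nearest the filter, and up to 3 genes of each pectin list with the smallest p; the other tested polygalacturonases were added after values were seen. Alternatives covered normalization, pseudocount, filter, variance model, samples in the fit, each array left out and a replicate block; the pectin and defence lists without Col-0 replicate 3 were added after seeing the data.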

Additional observations from a re-analysis of the deposited data

How the results depend on the processing

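Over 17 alternatives, 11 log2 differences of single polygalacturonases gave 183 values (AT1G48100 and AT1G23460 have none under the 60th percentile filter), of which 181 kept their direction and their side of the threshold. The exceptions both came without Col-0 replicate 3, where AT1G48100 in vtc2-1 against Col-0 turned to -0.12 (-0.12 to 0.91 with each array left out in turn) and AT5G14650 passed at 2.60. Leaving out each array in turn gave 2.43 to 3.02 for AT5G14650 in vtc2-1 against Col-0, 0.47 to 1.58 in vtc1-1 against Col-0 and 1.12 to 2.22 between the mutants. With a pseudocount of 16 the first of these was 1.95. The number of polygalacturonases called by limma stayed at 0 in all comparisons and alternatives, except that leaving out an array gave 0 to 1 in vtc2-1 against Col-0. Over all probe sets the count ran from 0 to 122 in vtc2-1 against Col-0 and from 0 to 47 in vtc1-1 when an array was left out, with the upper ends without Col-0 replicate 3. In vtc2-1 against Col-0 the count was 1 with all arrays, 0 without an intensity trend and 0 with only the 2 groups in the fit, and between the mutants it was 2 without an intensity trend. The cause was not tested. In vtc2-1 against Col-0 the median log2 difference was 0.22 with no filter, over all 47 probe sets, most of them near background. It was also 0.22 without Col-0 replicate 1, there over the 16 that passed the filter. Leaving out an array moved the median in vtc1-1 between -0.056 and 0.14. Of the 6 pectin and defence lists with a tested gene, run without Col-0 replicate 3 after seeing the data, the pectate lyases gained 2 calls of 13 in vtc2-1 and the defence genes 1 of 2 in each mutant, against 0.835% of all probe sets in vtc2-1 and 0.322% in vtc1-1, and the other 4 lists gained 0. If the replicate numbers pair the arrays is not settled. Deviations of same-numbered arrays from their group means correlated at -0.074 to 0.20 in 9 pairs, against -0.22 to 0.12 in 18 others. These ranges overlap, and with 3 arrays per genotype they cannot decide it. With the replicate block limma called 0 polygalacturonases in each comparison, and 1 probe set in all in vtc2-1 against Col-0. The limma adjusted p of AT5G14650 in vtc2-1 against Col-0 was 0.272 with the block and 0.597 without it. Signals near background limit every value of the 31 untested polygalacturonases.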
